A study of Mus musculus with 13 samples.

Results

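The skeletal muscle miRNAs mmu-miR-1a-3p, mmu-miR-133a-3p, mmu-miR-206-3p and mmu-miR-133b-3p, written below without the mouse prefix, were followed across 13 mouse neuroblastomas. They were taken by name from the non-control spots of the array, where they are 4 of the 1079 mouse miRNAs carried, each read by 2 probes of 20 spots. The tumours were primary abdominal tumours of TH-MYCN mice, in which the tyrosine hydroxylase promoter drives MYCN in the sympathetic lineage. Of these, 6 were wild type for caspase-8 and had not spread to the bone marrow, and 7 were caspase-8 deficient and had metastasised there. Genotype and metastasis changed together and cannot be told apart here. The labels call the tumours of a group biological replicates. The sources used here do not give the allele or Cre driver behind the deficiency, nor the age of the mice. Total RNA of each tumour was labelled with Cy3 and hybridised to 1 single-colour Agilent miRNA array.

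MicroRNAs are short RNAs that pair through their seed, the bases near the 5′ end, with messenger RNAs and lower their output. miR-1, miR-133 and miR-206 are the classic muscle miRNAs: muscle transcription factors switch them on, miR-1 and miR-206 promote differentiation of muscle cells, and miR-133 is best known for its part in their proliferation. miR-1 and miR-133a are abundant in skeletal and heart muscle, whereas miR-206 and miR-133b belong to skeletal muscle. Neuroblastoma, by contrast, arises from sympathetic precursors.

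The genes lie in pairs. In the RefSeq gene table Mir206 and Mir133b are next to each other inside Lincmd1, a long non-coding RNA gene of muscle, and Mir1a-1 and Mir133a-2 are next to each other inside Mir1a-1hg. Each of these loci holds a member of the miR-1 and miR-206 family and a member of the miR-133 family. miR-1a-3p and miR-133a-3p are also made from further gene copies, and the array does not tell their sources apart. miR-1 and miR-206 share a seed, and miR-133a and miR-133b differ only at the 3′ end, so that a member has both a neighbour and a paralogue among the other members.

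The mature sequences of the miR-206 and miR-133b locus are shown because the comparison by locus and by family turns on them. They are RefSeq sequences (GRCm38.p6), written 5′ to 3′ with the seed, bases 2 to 8, in capitals.
miR-206-3p: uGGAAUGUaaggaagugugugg
miR-133b-3p: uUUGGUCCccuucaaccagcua
The hairpins from which they are cut are shown with the mature strand in capitals, since the strand from the other arm was measured as well.
Mir206: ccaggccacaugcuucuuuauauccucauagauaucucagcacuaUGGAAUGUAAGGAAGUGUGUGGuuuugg
Mir133b: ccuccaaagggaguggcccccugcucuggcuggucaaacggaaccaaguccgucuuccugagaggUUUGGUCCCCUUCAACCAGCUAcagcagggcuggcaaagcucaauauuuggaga
In both hairpins the capitals stand in the 3′ arm.

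Levels are log2 of the summed probe signal after scaling each array, with a floor of 4.10, and levels of different miRNAs are not comparable with each other because probes differ in brightness. The arrays detected 338 to 452 mouse miRNAs in wild-type and 375 to 469 in deficient tumours, and the 75th percentile of signal used for scaling ran from 851 to 1929 and from 1000 to 1866. No member probe was saturated. The arrays lay on 2 slides: slide 1 held 2 wild-type and 5 deficient tumours, slide 2 held 4 and 2. In whole tumours, more cells of a type and more RNA per cell cannot be told apart.

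All 4 muscle miRNAs were detected in most tumours, and 3 of them stood far above the rest in the same 3 tumours. Wild-type tumour 1, deficient tumour 3 and deficient tumour 4 carried the highest levels of miR-1a-3p, miR-133a-3p, miR-206-3p and miR-133b-3p, so both groups and both slides were represented. The next highest tumour was wild-type tumour 6 for miR-1a-3p, miR-133a-3p and miR-133b-3p, and wild-type tumour 4 for miR-206-3p. Detection counts were 12, 12, 10 and 13 of 13 arrays for miR-1a-3p, miR-133a-3p, miR-206-3p and miR-133b-3p.

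miR-1a-3p, an abundant miRNA of mature muscle, ran from 4.17 to 10.72 in wild-type tumours with a median of 5.63. In deficient tumours it ran from 4.10 to 12.05 with a median of 4.74, the lowest being deficient tumour 2, which lay at the floor and was not detected. Wild-type tumour 1 stood at 10.72, deficient tumour 3 at 10.76 and deficient tumour 4 at 12.05, and wild-type tumour 6 followed at 7.51, a gap of 3.21. The other 9 tumours lay between the floor and 5.81, and the groups overlapped over nearly the whole range. The highest tumour was 98.6-fold above the median of all 13.

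miR-133a-3p, which can share a primary transcript with miR-1a, ran from 4.99 to 9.20 in wild-type tumours (median 5.93) and from 4.50 to 10.68 in deficient tumours (median 5.11). The high tumours were again wild-type tumour 1 at 9.20, deficient tumour 3 at 9.34 and deficient tumour 4 at 10.68, with a gap of 2.30 to wild-type tumour 6 at 6.90. The fold of the highest tumour over the median of all 13 was 38.0. miR-133a-3p therefore had the same order of high tumours as miR-1a-3p over a narrower span.

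miR-133b-3p, the miR-133 of the miR-206 locus, ran from 5.26 to 10.05 in wild-type tumours (median 6.26) and from 4.59 to 11.45 in deficient tumours (median 5.32). Wild-type tumour 1 stood at 10.05, deficient tumour 3 at 10.14 and deficient tumour 4 at 11.45, followed by wild-type tumour 6 at 7.37 after a gap of 2.68. Its highest tumour was 47.3-fold above the median of all 13.

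miR-206-3p, the miRNA of developing and regenerating skeletal muscle, had another shape. It ran from 5.24 to 7.97 in wild-type tumours (median 6.77) and from 4.10 to 8.34 in deficient tumours (median 5.99), with deficient tumours 1 and 2 at the floor. Wild-type tumour 1 at 7.97, deficient tumour 3 at 7.79 and deficient tumour 4 at 8.34 were the highest, but wild-type tumour 4 followed at 7.71, a gap of 0.08. The highest tumour was 3.83-fold above the median of all 13, so miR-206-3p graded over the tumours where its neighbour miR-133b-3p split them.

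**Figure D1:**
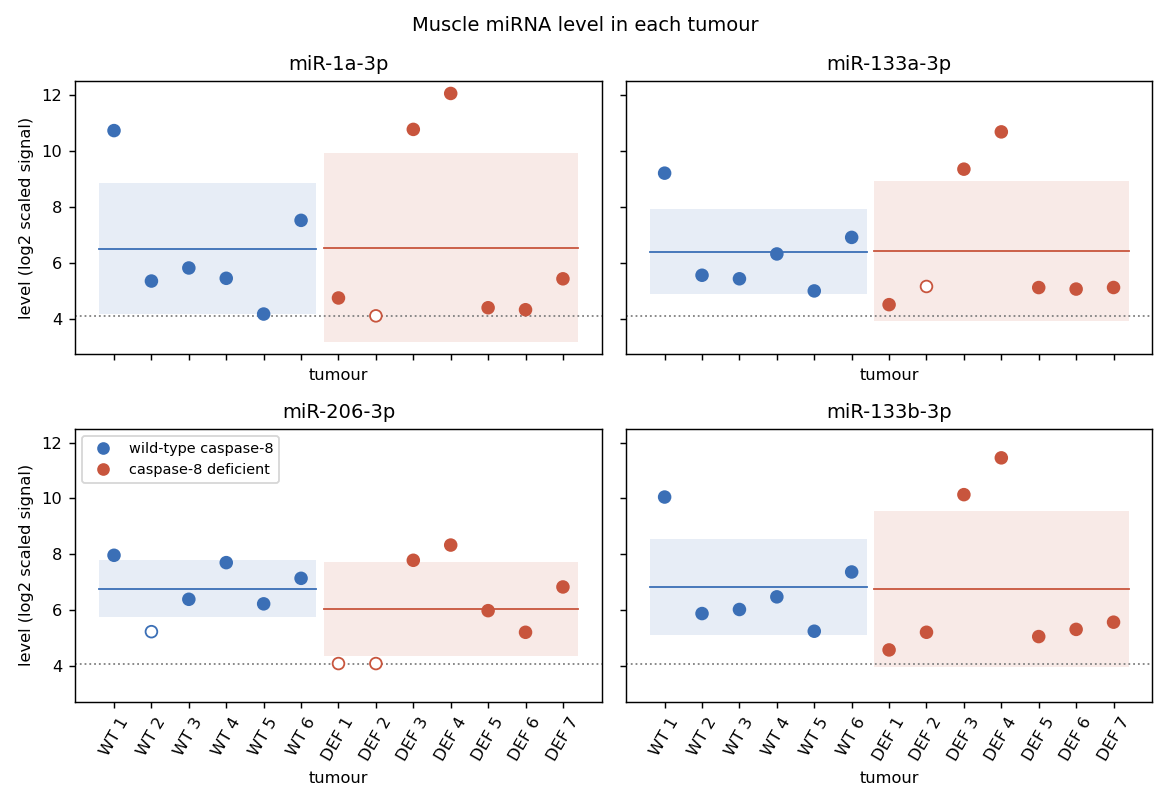
Level of each muscle miRNA (y axis, log2 scaled signal) in each tumour (x axis, WT wild-type caspase-8, DEF caspase-8 deficient); open points were not detected, lines and bands are the group mean and SD, and the dotted line is the floor at 4.10. In the panels of miR-1a-3p, miR-133a-3p and miR-133b-3p the points WT 1, DEF 3 and DEF 4 stand above a gap, while in the panel of miR-206-3p WT 4 at 7.71 lies beside DEF 3 at 7.79.

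The spots behind these levels set how far they can be read. All 40 spots were well above background in 3 tumours for miR-1a-3p, 4 for miR-133a-3p, 6 for miR-206-3p and 4 for miR-133b-3p, and no spot was in 1, 2, 3 and 1 tumours. In the dimmest tumour the summed signal was 5.43 times its spot standard error for miR-1a-3p and 7.91 times for miR-206-3p, both in deficient tumour 2. In the brightest tumour the factor was 266.6 and 91.2. Differences among the dim tumours are thus less precise than the distance between them and the bright ones.

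The spread between tumours put 3 of the muscle miRNAs among the 4 most variable of the 419 miRNAs tested. The SD over 13 tumours was 2.82 for miR-1a-3p (rank 1), 2.27 for miR-133b-3p (rank 2), 2.02 for miR-133a-3p (rank 4) and 1.42 for miR-206-3p (rank 16). The median SD of all tested miRNAs was 0.533.

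None of the 4 muscle miRNAs differed between deficient and wild-type tumours beyond that spread. With limma and Benjamini-Hochberg adjustment 0 of the 4 passed an adjusted p of 0.05, as did 0 of the 419 tested miRNAs (0%), and at an unadjusted p under 0.05 it was again 0 of 4 beside 16 of 419 (3.82%). miR-1a-3p averaged 6.50 ± 2.33 (SD) over the 6 wild-type tumours and 6.54 ± 3.37 over the 7 deficient ones, which differ by 0.04 with a 95% interval of −3.09 to 3.18 (limma adjusted p = 0.995). Mean miR-133a-3p was 6.40 ± 1.53 and 6.42 ± 2.49, with an interval of the difference from −2.23 to 2.28 and the same adjusted p in limma. The means of miR-133b-3p were 6.85 ± 1.72 and 6.77 ± 2.79, with an interval from −2.61 to 2.44 and again that adjusted p. These intervals reach beyond a 4-fold change in either direction, so a difference of that size is not excluded by these arrays.

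miR-206-3p had the widest separation of means among the 4, averaging 6.78 ± 1.02 (SD) over the 6 wild-type and 6.05 ± 1.69 over the 7 deficient tumours. The difference was −0.73 (SE 0.72, interval −2.26 to 0.81, limma adjusted p = 0.7). With slide as a block the differences were 0.13 for miR-1a-3p, 0.08 for miR-133a-3p, −0.63 for miR-206-3p and −0.05 for miR-133b-3p. Within slides the sign of 3 members turned with the place of the high tumours. miR-1a-3p differed by −2.23 within slide 1, which held wild-type tumour 1 and deficient tumour 3, and by 2.66 within slide 2, which held deficient tumour 4. miR-133a-3p gave −1.42 and 1.68 and miR-133b-3p −1.70 and 1.73, while miR-206-3p gave −0.62 and −0.65. Without deficient tumour 4 the difference of miR-1a-3p was −0.88, and without wild-type tumour 1 it was 0.89. That of miR-206-3p was −0.40 without deficient tumour 1 or without deficient tumour 2, where it lay at the floor. Without deficient tumour 4 it was −1.11, and at 4 times the floor −0.16.

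Paralogues and neighbours were compared by the difference of their levels within a tumour. Its absolute size carries probe brightness, so only its movement between tumours is read. miR-133a-3p minus miR-133b-3p, paralogues of different loci, moved by 0.90 over the 13 tumours, from −0.85 in wild-type tumour 1 to 0.05 in deficient tumour 5 (SD 0.30). miR-206-3p minus miR-133b-3p, neighbours of 1 locus, moved by 4.38, from −3.12 in deficient tumour 4 to 1.26 in deficient tumour 7 (SD 1.42). The signal of miR-133b-3p thus kept closer to that of its paralogue than to that of its neighbour. Whether the probes of each read only their own miRNA was not tested, and the signal of miR-206-3p also followed a viral probe set, described below.

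miR-1a-3p minus miR-133a-3p, whose genes are neighbours but which also have other copies, moved by 2.57, from −1.05 in deficient tumour 2 to 1.52 in wild-type tumour 1 (SD 0.93). In deficient tumour 2 neither was detected and miR-1a-3p lay at the floor, and the lowest difference among tumours with both detected was −0.87 in wild-type tumour 4. The paralogues miR-1a-3p and miR-206-3p moved furthest apart, by 5.98, from −2.26 in wild-type tumour 4 to 3.71 in deficient tumour 4 (SD 1.95). By family, then, the difference of the miR-133 pair varied less than that of miR-1a and miR-206. Whether the probes of miR-133a-3p and miR-133b-3p read each other's miRNA was not tested.

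The paralogue differences were compared between groups as 2 tests. miR-1a-3p minus miR-206-3p averaged −0.28 ± 1.84 (SD) over the 6 wild-type and 0.49 ± 2.11 over the 7 deficient tumours, 0.77 apart (two-sided exact permutation p = 0.495, adjusted p = 0.537). miR-133a-3p minus miR-133b-3p was −0.45 ± 0.25 and −0.34 ± 0.34, which lie 0.11 apart (exact permutation p = 0.537, adjusted p = 0.537). Neither balance between the loci differed beyond its spread. With slide as a block the differences were 0.76 and 0.12.

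**Figure D2:**
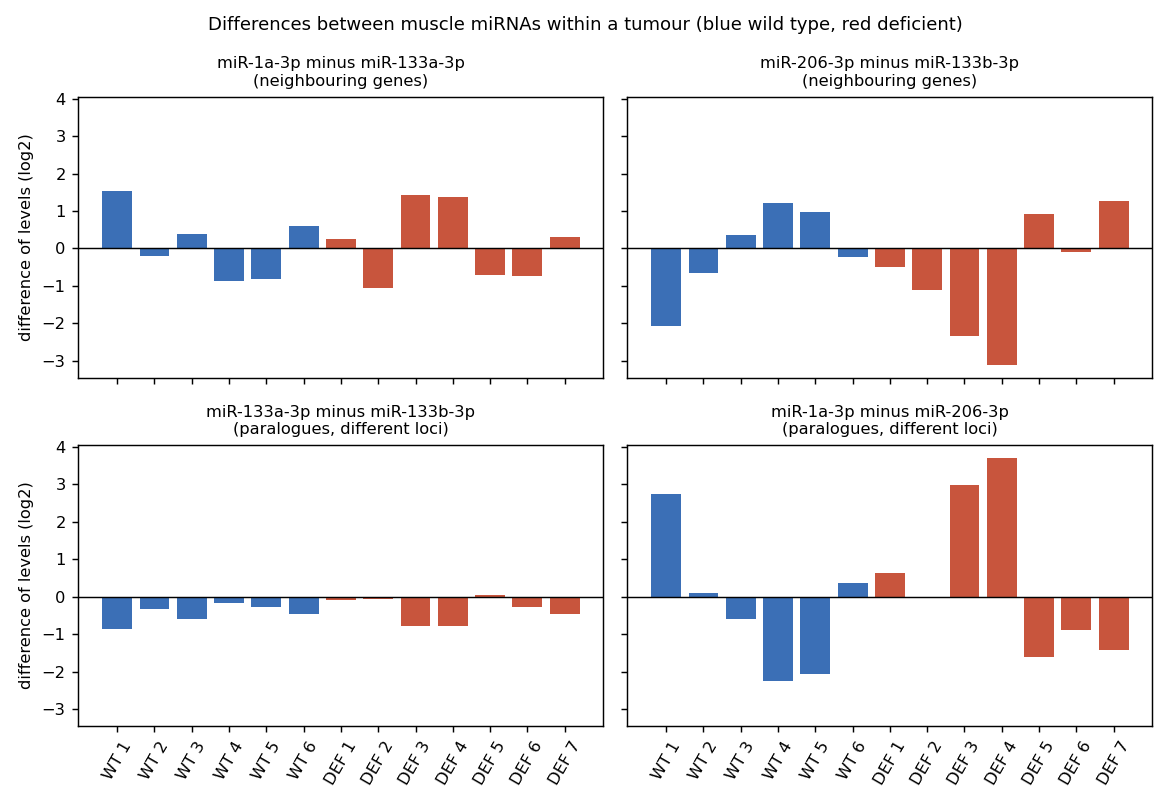
Difference of levels (y axis, log2) of a pair of muscle miRNAs in each tumour (x axis, WT wild-type caspase-8 in blue, DEF caspase-8 deficient in red); the upper panels are neighbours in a locus, the lower panels paralogues of different loci, and bars start at 0. The bars of miR-133a-3p minus miR-133b-3p stay between −0.85 and 0.05, whereas those of miR-206-3p minus miR-133b-3p run from −3.12 to 1.26.

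Because 3 tumours stood apart in miR-1a-3p, correlations are given over the other 10 tumours, as 6 relations adjusted together. The tightest was between miR-133a-3p and miR-133b-3p, with r = 0.971 (permutation adjusted p = 0.0003) and rho = 0.855. miR-1a-3p correlated with miR-133b-3p at r = 0.880 (permutation adjusted p = 0.00495, rho = 0.782) and with miR-133a-3p at r = 0.811 (permutation adjusted p = 0.0148, rho = 0.673). These tumours were largely dim. Among the 10, only wild-type tumour 6 had all 40 spots of each miR-133 form well above background. For miR-133a-3p no spot was in deficient tumours 2 and 5. The part of background signal in these correlations was not tested.

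For miR-206-3p the values of r were lower, while rho lay in a similar range. Over the same 10 tumours r was 0.720 with miR-133b-3p (permutation adjusted p = 0.0256, rho = 0.784), 0.687 with miR-133a-3p (permutation adjusted p = 0.0300, rho = 0.608) and 0.588 with miR-1a-3p (permutation adjusted p = 0.0681, rho = 0.736). The differences between these coefficients were not tested. The 2 tumours farthest from the median of 1 miRNA of each pair were then left out, so pairs lost different tumours. For the pairs of miR-1a-3p these were wild-type tumour 6 and deficient tumour 2. For miR-133a-3p with miR-206-3p or miR-133b-3p they were wild-type tumours 6 and 4. For miR-206-3p with miR-133b-3p they were deficient tumours 1 and 2. Only the pair of miR-133a-3p and miR-133b-3p kept an adjusted p under 0.05, with r = 0.914 over 8 tumours (exact permutation adjusted p = 0.0226). The other 5 pairs had r from 0.398 to 0.714 over 8 tumours and no longer passed. Their rho over 8 tumours was 0.738 for miR-1a-3p with either miR-133, and 0.571, 0.252 and 0.667 for miR-206-3p with miR-1a-3p, miR-133a-3p and miR-133b-3p. By rank, the relations of miR-1a-3p with the miR-133 forms were thus kept in size, and the loss of the call in r came with fewer tumours and without wild-type tumour 6 and deficient tumour 2. Each slide held 5 of the 10 tumours, too few for a value within it.

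The 2 probes of a miRNA gave a further view of the dim tumours. For miR-133a-3p the ratio of the second probe to the first was 5.34 in wild-type tumour 1, 5.16 in deficient tumour 3 and 5.13 in deficient tumour 4, and 1.53 to 3.43 in the others. For miR-133b-3p it was 5.74, 5.75 and 5.44 in those tumours and 1.86 to 4.82 in the others. The probes of both miR-133 forms thus gave a like ratio in the 3 brightest tumours and lower ratios in the dim ones. For miR-133b-3p the split was not clean. Wild-type tumour 2 read 4.82 ± 0.72 (spot standard error) beside 5.44 ± 0.06 in deficient tumour 4.

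For miR-1a-3p the first probe rose above 3 spot standard errors only in wild-type tumours 1 and 6 and deficient tumours 3 and 4, with ratios of 9.65, 9.03, 9.60 and 7.95. In the other 9 tumours the first probe read from −5.73 in deficient tumour 2 to 1.74 in wild-type tumour 3. The positive signal of miR-1a-3p there came almost wholly from the second probe, and a negative first probe lowered the sum. For miR-206-3p the ratio was 1.51 ± 0.05 (spot SE) in wild-type tumour 1, 1.61 ± 0.04 in deficient tumour 3 and 1.32 ± 0.03 in deficient tumour 4. In the tumours with a lower level it was 0.974 to 1.16, apart from 1.40 ± 0.21 in wild-type tumour 2 and 1.39 ± 0.38 in deficient tumour 2. Wild-type tumour 4, whose miR-206-3p level was next to that of deficient tumour 3, had a ratio of 1.08 ± 0.05. Thus at a similar summed level the 2 probes of miR-206-3p stood in another proportion.

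**Figure D3:**
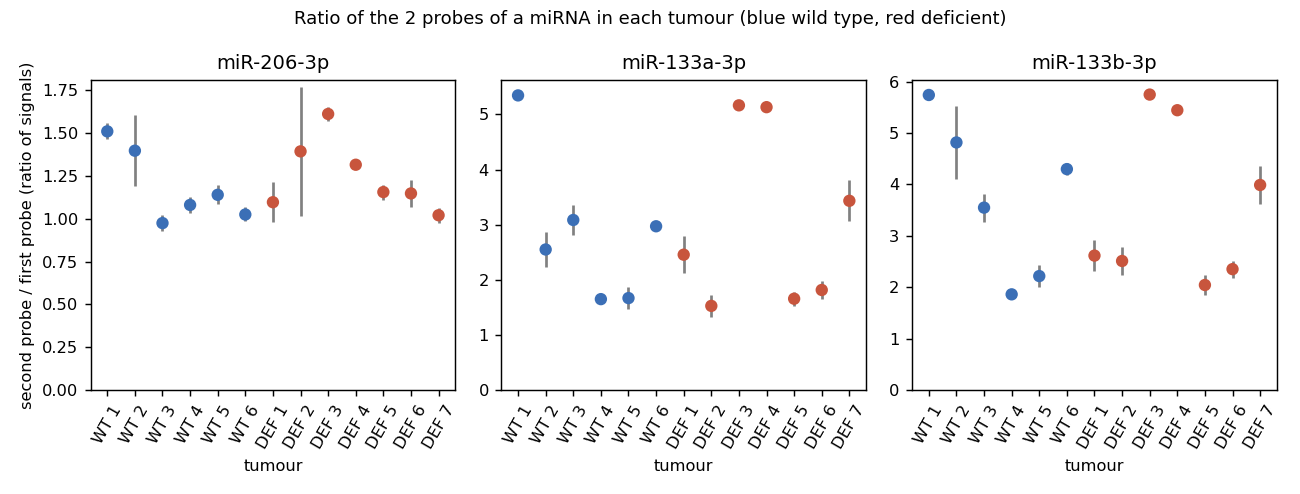
Signal of the second probe over that of the first (y axis, ratio of unscaled signals) for miR-206-3p, miR-133a-3p and miR-133b-3p in each tumour (x axis, WT wild-type caspase-8 in blue, DEF caspase-8 deficient in red); bars are the standard error over spots. WT 1, DEF 3 and DEF 4 have the highest ratios for miR-133a-3p and miR-133b-3p, and for miR-206-3p WT 1 at 1.51 and DEF 3 at 1.61 lie above WT 4 at 1.08.

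Other products of muscle miRNA genes were mostly not detected. Of 14 further forms of miR-1, miR-133, miR-206, miR-208, miR-499 and miR-486 on the array, 10 were detected in no tumour, among them miR-206-5p and miR-133b-5p from the 5′ arms of the hairpins shown above. miR-208a-3p, miR-208b-3p and miR-499-5p, which are encoded in myosin heavy chain genes of heart and slow muscle, were among those 10. Other strands of the same hairpins were detected: miR-499-3p in wild-type tumours 4 and 6 and deficient tumours 4 and 7, with unscaled signals of 38.7 to 58.0, and miR-208a-5p in wild-type tumours 4 and 6, with 28.6 and 27.8. miR-486-3p was detected in deficient tumour 1. Of the 3 tumours with the highest miR-1a-3p, deficient tumour 4 was thus the only one with a detected miR-499-3p. The passenger strand miR-133a-5p was detected in wild-type tumour 1 with an unscaled signal of 26.9 and in deficient tumour 4 with 84.1. In deficient tumour 3 it read 15.6 without detection, and in each of the other tumours it was below 0, down to −12.5. The only tumours in which miR-133a-5p gave a positive signal were thus the 3 with the highest miR-133a-3p.

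A viral probe set moved with miR-206-3p. The array also carries probes for miRNAs of murine gammaherpesvirus, and mghv-miR-M1-2-5p, taken up because earlier results of these data pointed to it, was detected in all 13 tumours. Its p-values here and below are adjusted at most over the 4 members, not over the probes it was picked from. They therefore describe the relation in these tumours and are no independent support for it. Whether the probe set read a viral miRNA here was not tested. The level of the probe set ran from 8.25 to 10.64 in wild-type tumours and from 5.51 to 9.79 in deficient tumours. Over 13 tumours its correlation with miR-206-3p was r = 0.840 (permutation p = 0.00013, adjusted p = 0.00052 over the 4 members, rho = 0.845), and r = 0.661 without the 2 tumours farthest from its median (permutation p = 0.0263). Within slide 1 r was 0.754 (n = 7, exact permutation p = 0.0212) and within slide 2 it was 0.941 (n = 6, exact permutation p = 0.00833).

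Over the 10 tumours other than wild-type tumour 1, deficient tumour 3 and deficient tumour 4, the correlation of miR-206-3p with the viral probe set was r = 0.961 (rho = 0.985). Its permutation p of 0.00001 is the smallest that 100000 permutations can give, and the adjusted p was 0.00004. Over 8 of these, without deficient tumour 2 and wild-type tumour 4, r was 0.974 (exact permutation p = 0.0000496). In deficient tumours 1 and 2, both among the 10, miR-206-3p was not detected and lay at the floor. For miR-1a-3p, miR-133a-3p and miR-133b-3p r over the 10 tumours was 0.558, 0.620 and 0.665 (permutation adjusted p = 0.101, 0.0756 and 0.0756). By rank, rho over the 10 tumours was 0.673, 0.515 and 0.721 (permutation adjusted p = 0.0526, 0.133 and 0.0467), so miR-133b-3p passed as well as miR-206-3p. Over all 13 tumours rho was 0.643 for miR-1a-3p and 0.676 for miR-133b-3p (permutation adjusted p = 0.0277 and 0.0276), both past the threshold, and 0.555 for miR-133a-3p (permutation adjusted p = 0.0523). The differences between the coefficients of the members were not tested.

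The distance of miR-206-3p from the viral probe set was smaller in the high muscle tumours. miR-206-3p minus the viral level lay between −3.01 and −2.31 (median −2.62) in the 8 other tumours where miR-206-3p was above the floor. It was −1.09 in wild-type tumour 1, −0.54 in deficient tumour 3 and −1.45 in deficient tumour 4, above all 8. Wild-type tumour 4, with the highest viral level of 10.64, was the tumour whose miR-206-3p of 7.71 closed the gap to the high tumours. The viral probe set itself averaged 9.20 ± 0.83 (SD) over the 6 wild-type and 8.02 ± 1.51 over the 7 deficient tumours (difference −1.19, exact permutation p = 0.12), the same sign as miR-206-3p. The difference of miR-206-3p minus the viral level was 0.46 (exact permutation p = 0.326), so its sign was opposite to that of miR-206-3p itself. The part of this signal in the miR-206-3p level was not tested.

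**Figure D4:**
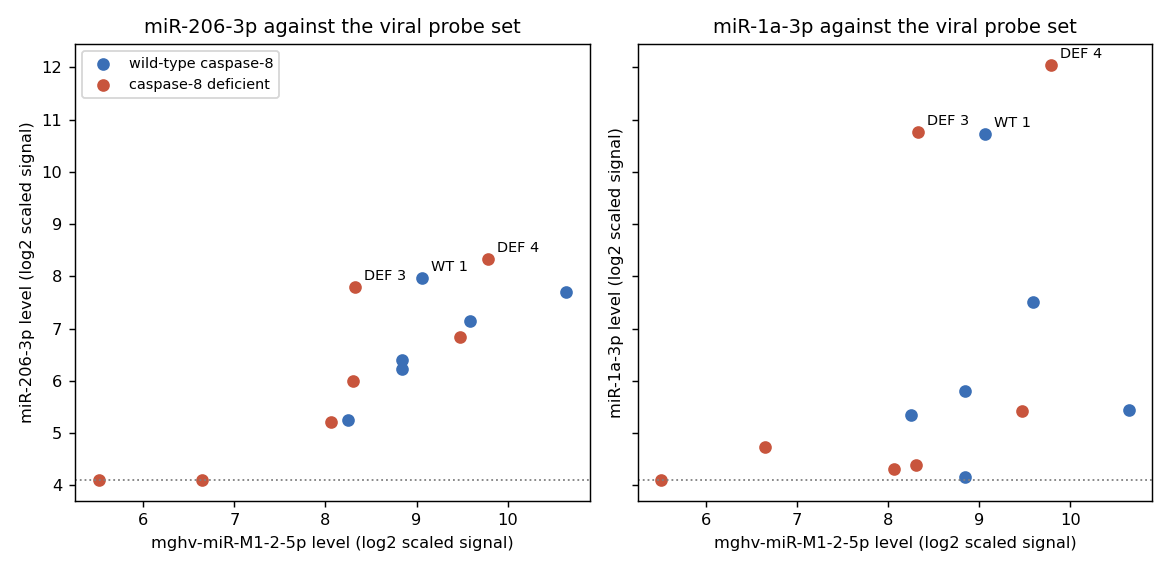
Level of miR-206-3p (left) and miR-1a-3p (right) against the viral probe set mghv-miR-M1-2-5p (x axis), all in log2 scaled signal, 1 point per tumour, blue wild-type caspase-8 and red caspase-8 deficient; the dotted line is the floor. On the left r was 0.961 over the 10 points other than WT 1, DEF 3 and DEF 4, with DEF 1 and DEF 2 of these at the floor. On the right WT 1, DEF 3 and DEF 4 stand far above the rest.

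The miRNAs most like each member were taken as the 3 with the highest Pearson correlation over the 13 tumours among 415 other tested miRNAs. They are given with no test, and their likeness rests largely on the same high tumours. miR-412-5p led for miR-1a-3p (r = 0.922), miR-133a-3p (r = 0.928) and miR-133b-3p (r = 0.928). It read 5.68 in wild-type tumour 1, 5.04 in deficient tumour 3 and 6.13 in deficient tumour 4, with a median at the floor, and its r with miR-1a-3p over the other 10 tumours was 0.232. miR-496-3p and miR-412-3p took the other places for all 3 members, with r from 0.832 to 0.870. miR-412-3p lay at the floor in all of the other 10 tumours.

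The sequence of miR-412-5p is set against that of miR-133b-3p because it led the list of that member; capitals mark the longest run of bases they share.
miR-133b-3p: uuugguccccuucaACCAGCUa
miR-412-5p: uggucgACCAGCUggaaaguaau
The run of 7 bases occurs in 2 of 1679 mature mouse miRNAs (0.119%), and 25 of 1678 others (1.49%) share a run at least as long with miR-133b-3p. It lies at the 3′ end of miR-133b-3p, outside the seed. A shared run is a description, and its part in the signal was not tested.

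For miR-206-3p the closest were other miRNAs: miR-294-3p (r = 0.889, rho = 0.867), miR-15a-3p (r = 0.858) and miR-669f-5p (r = 0.857). Their likeness was higher over the other 10 tumours, at r = 0.962, 0.984 and 0.986. They read 7.66, 7.36 and 8.89 in wild-type tumour 4, which had the highest level of the viral probe set. In deficient tumour 2, which had the lowest, they read 4.22, 4.10 and 4.10. Their relation to the viral probe set was not tested, so it is not shown to be particular to miR-206-3p. miR-294-3p belongs to a miRNA cluster of embryonic stem cells. The miR-206-3p list thus shared no miRNA with the lists of the other 3 members. Its leading miRNA is set against miR-206-3p with the shared run in capitals.
miR-206-3p: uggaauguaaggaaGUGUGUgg
miR-294-3p: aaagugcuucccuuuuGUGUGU
This run of 6 bases is found in 17 of 1679 mature miRNAs (1.01%), and 116 of 1678 (6.91%) share a run as long or longer with miR-206-3p. With miR-15a-3p, whose r over the other 10 tumours was 0.984, the longest shared run was 4 bases. A run that long or longer is shared by 1043 of 1678 (62.2%). The pair with the longer run had the lower r over the other 10 tumours (0.962 beside 0.984). Over all 13 tumours it had the higher r (0.889 beside 0.858). The part of a shared run in the signal was not tested.

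Markers of other cell types were read beside the muscle miRNAs. Summed, the skeletal muscle list of the 4 members ran from 7.35 to 11.81 in wild-type and from 6.50 to 13.13 in deficient tumours. Of the list for heart and slow muscle, 0 of 3 markers were detected in any tumour, although miR-499-3p and miR-208a-5p, from the other strands, were detected in 4 and 2 tumours. The 3 markers of pancreas were detected in none. The liver marker miR-122-5p was detected in 1 tumour. Of the 6 neural and neuroendocrine markers, which fit the labelled tumour type, 5 were detected on all 13 arrays, and their sum ran from 12.71 to 13.81 and from 12.59 to 13.35. Deficient tumour 3 had the lowest sum of that list, whereas wild-type tumour 1 ranked 2 and deficient tumour 4 ranked 9 of 13.

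Smooth muscle markers, miR-143-3p and miR-145-5p, summed to 7.53 to 9.29 in wild-type and 7.94 to 9.14 in deficient tumours. The high muscle tumours read 8.41, 8.47 and 8.40 in the order wild-type tumour 1, deficient tumour 3 and deficient tumour 4, in the middle of that range. The brown fat list, miR-193b-3p and miR-365-3p, read 7.77, 8.21 and 8.18 there, within a range of 7.40 to 8.70 over all 13. The mesenchymal list read 10.90, 11.06 and 10.96 within 10.18 to 11.63. Their ranks of 3, 2 and 1 in the skeletal muscle list follow from how they were picked out and support nothing.

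Blood and vessel lists gave the following ranges. The erythroid list, with 2 of its 3 markers on the array, ran from 12.28 to 16.35, and the leukocyte list from 9.38 to 12.20. The endothelial list ran from 10.12 to 12.13 and the kidney list from 5.79 to 6.80. The ranks of wild-type tumour 1, deficient tumour 3 and deficient tumour 4 among the 13 were 10, 4 and 9 in the erythroid list and 8, 9 and 11 in the leukocyte list. In the endothelial list they were 7, 3 and 8, and in the kidney list 6, 10 and 4. The part of these cell types in the muscle miRNA levels was not tested.

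**Figure D5:**
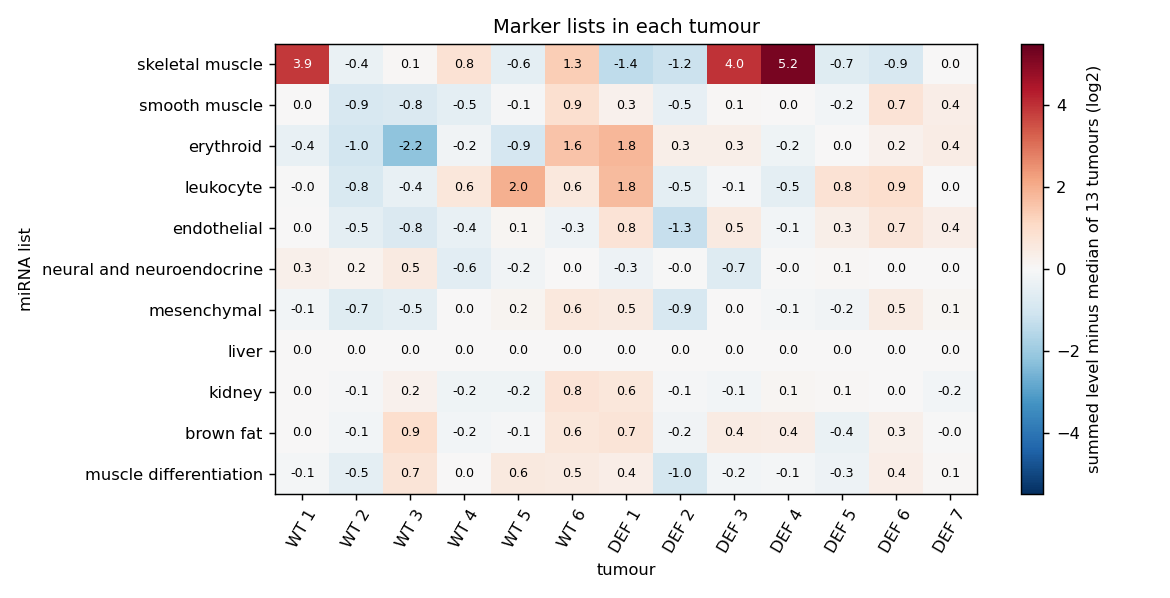
Summed level of each marker list minus its median over the 13 tumours (colour and printed value, log2; red above, blue below) for each list (y axis) and tumour (x axis, WT wild-type caspase-8, DEF caspase-8 deficient). The top line, the 4 skeletal muscle miRNAs, is highest in DEF 4, DEF 3 and WT 1; lists of heart and slow muscle and of pancreas, at the floor in all tumours, are not drawn.

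The wider muscle differentiation list of 16 miRNAs, which includes miR-24, miR-27b, miR-214, miR-322 and miR-503 that act on muscle cell cycle exit and satellite cell state, was also described by counts. Of these, 15 were on the array, 4 were detected in no tumour and 10 were tested. With limma 0 of the 10 passed an adjusted p of 0.05, 4 had higher and 6 had lower means in deficient tumours, and their median difference was −0.17 beside 0.04 over all 419 tested. The differences were −0.52 (SE 0.50) for miR-503-5p, −0.52 (SE 0.35) for miR-29a-3p and 0.33 (SE 0.22) for miR-378-3p. The summed level of the list placed wild-type tumour 1, deficient tumour 3 and deficient tumour 4 at ranks 9, 10 and 8 of 13, so those tumours were not high in the sum. Bright members weigh most in that sum, and single tested members differed. Their ranks ran from 6 to 12 in wild-type tumour 1 and from 5 to 11 in deficient tumour 3. In deficient tumour 4 they ran from 2 for miR-378-3p to 12 for miR-322-5p.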

How the data were processed

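Members and lists were chosen with earlier results of these data known. The deposited scanner files hold spot intensity on a linear scale, background-subtracted per the file headers by Feature Extraction 10.7.3.1, whereas the submitters' processing notes name 10.5.1.1. Detection and outlier marks are deposited yes or no values (other). The authors' deposited series matrix holds log2 values and served as an alternative. Spots of a probe were averaged and probes of a miRNA summed. Each array was then scaled so that its 75th percentile, over 294 miRNAs found on all 13 arrays, equalled the geometric mean over arrays. Values under a floor of 17.2 were set to it before taking log2. limma 3.58.1 (R 4.3.3, with version 1.17.8 of data.table) tested the 419 mouse miRNAs found on 6 or more arrays. Single values used exact permutation, and correlations 100000 permutations where over 8 tumours. Named miRNAs were the members, their 3 most correlated miRNAs, further muscle forms and listed markers. Normexp used an offset of 50. The fit was tested on simulated data. The number of arrays limits precision. Gene neighbours came from a GRCm38.p6 table, and no coordinates are given since the array design names mm9.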

Additional observations from a re-analysis of the deposited data

How the results depend on the processing

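The count of miRNAs past the threshold was 0 under all 33 alternatives, and miR-206-3p was lower in deficient tumours under all 32 of its alternatives (−1.11 to −0.16). Signs of the other members turned, with no value past the threshold in any alternative, and the cause was not tested. miR-133b-3p was 0.11 without scaling, 0.0556 after quantile normalization, 0.21 with normexp, 0.41 at 4 times the floor, 0.14 in the series matrix and 1.73 within slide 2. miR-1a-3p was −0.0195 and miR-133a-3p −0.0887 with total signal scaling, −1.04 and −0.64 with array weights, and −2.23 and −1.42 within slide 1. A floor of 1 gave −0.11 for miR-1a-3p, and keeping outlier spots gave −0.00823 for miR-133a-3p. The scanner software's total gene signal, chosen after seeing the data, gave −0.0819 and −0.292. miR-1a-3p minus miR-206-3p was −1.62 within slide 1, and miR-133a-3p minus miR-133b-3p was −0.0193 with normexp, −0.0538 within slide 2 and −0.0887 with total gene signal.

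Leaving out 1 tumour gave −0.88 to 0.89 for miR-1a-3p, −0.68 to 0.58 for miR-133a-3p, −1.11 to −0.40 for miR-206-3p and −0.86 to 0.56 for miR-133b-3p. The paralogue differences ran from 0.23 to 1.38 and from 0.03 to 0.18. Deviations of same-numbered tumours correlated at −0.220 to 0.194 over 6 pairs, with 3 of the 6 above 0.1. The labels state no pairing by number, and different-numbered tumours were not compared, so pairing was neither shown nor excluded. An unadjusted limma p under 0.05 was met by 63 miRNAs with the replicate number as a block over 12 tumours. Without the block, leaving out deficient tumour 7, it was met by 37. With the replicate block over 12 tumours the count stayed 0, and the differences were 0.23 for miR-1a-3p, 0.24 for miR-133a-3p, −0.86 for miR-206-3p, 0.12 for miR-133b-3p, 1.09 and 0.13 for the paralogue pairs.

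Over all 13 tumours r ran from 0.770 to 0.997 among the members. Within slide 2 it was 0.671 for miR-1a-3p and miR-206-3p, 0.787 for miR-133a-3p and miR-206-3p and 0.789 for miR-206-3p and miR-133b-3p, no longer past the threshold. Without the high tumours and the 2 farthest from the median, chosen after seeing the data, it was 0.557 for miR-1a-3p and miR-133a-3p, 0.411 for miR-1a-3p and miR-206-3p, 0.714 for miR-1a-3p and miR-133b-3p, 0.398 for miR-133a-3p and miR-206-3p and 0.611 for miR-206-3p and miR-133b-3p. Without the high tumours alone miR-1a-3p and miR-206-3p gave 0.588. Means of all tested miRNAs were higher in deficient tumours for 227 and lower for 192; without scaling the split was 307 to 112 and the median difference moved from 0.04 to 0.22, with total signal scaling it was 178 to 241, and with normexp 157 to 262.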
